A study of Mus musculus with 18 samples.

Results

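The genes described here are the Myc transcription factors Myc, Mycn and Mycl, the D-type cyclins Ccnd1, Ccnd2 and Ccnd3, and the inhibitors of cyclin-dependent kinases (CDKs) Cdkn1a, Cdkn1b, Cdkn2a and Cdkn2b of the mouse. They were chosen by name as genes of growth and of the G1 phase, with earlier results of these data known, and each symbol was matched to its Ensembl identifier in the annotation of genome build GRCm38. The 10 genes are 10 of 49671 in the count table. Myc factors pair with Max, bind DNA at short motifs called E-boxes and drive ribosome production, metabolism and growth. D cyclins bind the kinases Cdk4 and Cdk6, which phosphorylate the retinoblastoma protein and release E2F factors at the passage into S phase, and the CDK inhibitors oppose this step. Mouse embryonic stem (ES) cells are known for a short G1 phase, weak control by retinoblastoma proteins and a need for Myc factors to keep growing.

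Poly(A) RNA was sequenced from mouse ES cells embedded in matrigel at 2000 cells per µl, in a study of how Wnt signalling governs the self-organisation of pluripotent cells into an epithelium. There were 18 samples in 6 groups of 3. All cells had been kept before in 2i/Lif, that is PD0325901 at 0.4 µM, CHIR99021 at 3 µM and Lif at 4 ng/ml, and the 3D cultures were in N2B27 medium. The wild-type line was E14 (strain label 12910la) at passage 20, cultured for 48 h. Its DMSO group received solvent alone, and its CH group received 3 µM CHIR99021, which blocks GSK3 and so switches on signalling through β-catenin. Its 2i group received 3 µM CHIR99021 with 0.4 µM PD0325901, an inhibitor of the kinase MEK, and its FGF2_Activin group received Activin A at 20 ng/ml with Fgf2 at 12 ng/ml, the condition that moves ES cells toward the state of the epiblast after implantation. The second line was Esrrb fl/fl at passage 25 (strain label Acr-EGFP transgenic mice), which carries a tamoxifen-inducible Cre recombinase (MerCreMer) able to delete Esrrb, a transcription factor of the naive ES cell network. Cells of this line were grown for 24 h in 3 µM CHIR99021, either after 1 day with 4-hydroxytamoxifen (Esrrb_4OHT) or without it (Esrrb_NT). Both groups carry the Cre, but no group received 4-hydroxytamoxifen without floxed Esrrb, so the agent, the active Cre and the deletion cannot be told apart. The lines differ in passage and in culture time and were not compared with each other.

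The values are deposited counts of reads per gene. Totals lay between 25706865 and 37158661 counts per sample in DMSO, between 25388139 and 30799376 in CH, between 29148315 and 35089261 in 2i and between 28523527 and 33199666 in FGF2_Activin. In the floxed line they lay between 19945865 and 20033764 in Esrrb_NT and between 19915222 and 20140699 in Esrrb_4OHT. Levels are given as CPM (counts scaled to a common library total) after TMM scaling, and values in 3 samples follow the order of replicates 1, 2 and 3. Levels of different members are compared only as CPM per kilobase (kb) of exon. The length is that of all annotated exons of a gene merged, which can be far longer than a transcript. For Ccnd3 it was 8775 bases, where a transcript of it had 1999. Ranks and shares per kb therefore depend on the length taken. The gene called most abundant in a list of other genes is taken by CPM, without regard to length. A gene passed when its p in the quasi-likelihood test of edgeR, adjusted by the Benjamini-Hochberg method over all genes, was under 0.01, and it was called when the change was also over 2-fold. SE is the standard error of a log2 fold change. All 10 genes passed the filter on low counts in both lines, among 16413 genes in the wild-type samples and 14893 in the floxed samples.

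Replicate 1 stood apart from replicates 2 and 3 in each of the 6 groups. The counts of replicates 2 and 3 differed by a chi-square of 1.44 to 8.75 per gene, and those of replicate 1 and either of them by 12.1 to 69.2 per gene. Cdkn1a was highest in replicate 1 in 6 of 6 groups, at 1.04 to 2.26 times the mean of replicates 2 and 3, and Myc was lowest in replicate 1 in 5 of 6 groups. A further fit of every comparison, chosen from the labels, took replicate numbers as blocks, and another, chosen after seeing the data, used replicates 2 and 3 alone. The fit of replicates 2 and 3 leaves out the replicate that stood apart. Its p-values rest on the smaller spread between those 2 and can be too low. The labels do not say whether the samples of a group were separate cultures, so the p-values measure the spread between these samples, which may be technical.

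All 8 ES cell markers examined had a mean of at least 1 CPM in each of the 6 groups, with Pou5f1, Utf1 or Dppa5a as the most abundant. Genes that report on the treatments were read as a check on the labels. Axin2, a target of Wnt signalling, had 9.02, 6.51 and 7.91 CPM in DMSO and 270.1, 158 and 156 CPM in CH, and it was called higher in CH (log2 fold change 4.64). Nkd1, another Wnt target, had 12.3, 6.28 and 5.88 CPM in CH against 5.10, 3.82 and 3.90 CPM in DMSO and did not pass. Dusp6 and Spry4, which rise with MEK and ERK activity, were called lower in 2i than in CH, with log2 fold changes of -1.80 and -2.63. Nkd1 was called lower there too (-1.80), although both media hold CHIR99021. Of the 6 genes read for this check, these 3 were called lower in 2i than in CH. Among the others, Axin2, Lefty1 and Lefty2, 1 was called higher there, against the direction of these 3. Lefty1 and Lefty2, targets of Activin and Nodal signalling, were called higher in FGF2_Activin than in DMSO, and the log2 fold change of Lefty1 was 7.26. Both were also called higher in CH than in DMSO, without added Activin (5.15 for Lefty1 and 5.75 for Lefty2), so their rise does not mark FGF2_Activin alone. Esrrb itself had 142, 110 and 109 CPM in Esrrb_NT and 58.9, 63.8 and 59.8 CPM in Esrrb_4OHT. All 3 treated samples lay below all 3 untreated ones, and Esrrb fell by 0.99 on the log2 scale, which passed the test and was not called. Counts per gene do not separate transcripts with and without the deleted stretch.

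Of the 10 genes, 2 passed and were called in CH against DMSO, both higher. Among all genes tested there, 13.7% passed as higher and 15.3% as lower, and 17.7% were called. In 2i against CH 1 gene, Ccnd2, passed and was called lower, where 0.829% of all genes passed as higher, 2.0% as lower and 1.99% were called. In FGF2_Activin against DMSO 0 of 10 passed edgeR's quasi-likelihood test, 5 had an unadjusted p under 0.05, and DESeq2's test passed 2 and called 1. Of all genes, 1.18% passed as higher, 0.615% as lower and 1.25% were called in that comparison. In 2i against FGF2_Activin 4 were called, 2 higher and 2 lower, where 17.8% of all genes passed as higher, 19.9% as lower and 23.5% were called. In Esrrb_4OHT against Esrrb_NT 4 passed as higher and 2 as lower, and 3 were called, where 24.6% of all genes passed as higher, 19.9% as lower and 16.7% were called. DESeq2's test passed 4 members in CH against DMSO, 2 in 2i against CH, 7 in 2i against FGF2_Activin and 6 in the floxed line, and called 2, 1, 5 and 3 of them. With the replicate block the called members numbered 2 in CH against DMSO (22.0% of all genes), 1 in 2i against CH (4.09%) and 1 in FGF2_Activin against DMSO (2.58%). They numbered 5 in 2i against FGF2_Activin (27.5%) and 3 in Esrrb_4OHT against Esrrb_NT (17.7%). In CH against DMSO the share of members called was near that of all genes, so that count says nothing particular about them. CH against DMSO and FGF2_Activin against DMSO share the DMSO samples, and the comparisons with 2i share the 2i samples.

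**Figure D1:**
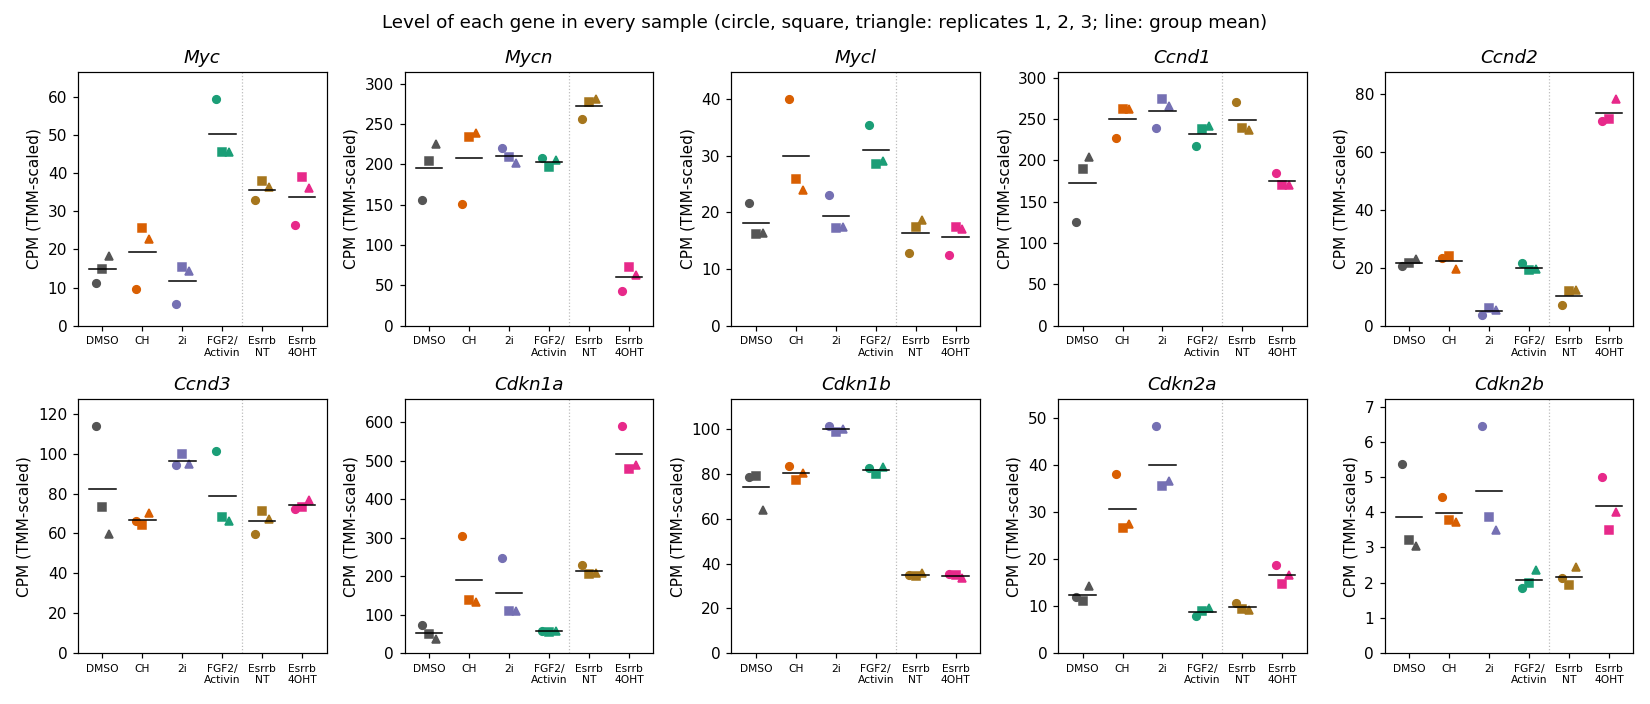
TMM-scaled CPM of each of the 10 genes in each of the 18 samples, with circles, squares and triangles for replicates 1, 2 and 3 and a line for the group mean. Among wild-type groups Myc is highest in FGF2_Activin and Ccnd2 lowest in 2i, and within the floxed line Ccnd2 is higher and Mycn lower in Esrrb_4OHT than in Esrrb_NT.

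The Myc factors differed in which groups set them apart. Mycn was the most abundant of them per kb in each of the 6 groups and lay within a narrow range in the 4 wild-type cultures. Myc stood out in FGF2_Activin, where it was above every other wild-type sample. After 4-hydroxytamoxifen in the floxed line, Mycn fell more than 4-fold while Myc and Mycl did not pass the test.

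Mycn (ENSMUSG00000037169, chromosome 12, 12936093 to 12941914, minus strand) is the Myc factor best known from embryonic and neural progenitors. It had 257, 278 and 281 CPM in Esrrb_NT and 43.3, 73.4 and 62.9 CPM in Esrrb_4OHT. Every treated sample was below every untreated sample, and the lowest untreated value was more than 3 times the highest treated one. The means were 272 ± 13.2 and 59.9 ± 15.3 CPM (SD, n = 3 each), a 4.54-fold decrease. The log2 fold change was -2.18 (SE 0.16, adjusted p = 1.26e-05), with a 95% interval from -2.55 to -1.82. In these bulk samples, fewer cells with Mycn and less Mycn RNA per cell cannot be told apart. In the wild-type cultures Mycn had 156, 204 and 226 CPM in DMSO, 150, 234 and 239 in CH, 221, 209 and 202 in 2i, and 208, 197 and 206 in FGF2_Activin. The low values were those of replicate 1 in DMSO and in CH, and the 4 groups overlapped. Its wild-type means lay between 195 and 211 CPM, and the ranges of neighbouring groups in that order overlapped. With replicates 2 and 3 alone Mycn passed as lower in 2i than in CH (-0.20, adjusted p = 0.00782, within 0.00782 to 1.0 over the alternatives), against the direction of the means of all samples.

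Myc (ENSMUSG00000022346, chromosome 15, 61985391 to 61990374, plus strand) is the founding member of the family and responds quickly to mitogens. It had 59.4, 45.6 and 45.5 CPM in FGF2_Activin, 11.2, 14.8 and 18.4 in DMSO, 9.64, 25.5 and 22.6 in CH and 5.68, 15.3 and 14.4 in 2i. The FGF2_Activin samples were all above the other 9 wild-type samples, and DMSO, CH and 2i overlapped, with replicate 1 the lowest of each. Myc was lower in 2i than in CH in each of the 3 pairs of equal replicate number. With replicates 2 and 3 alone it passed in 2i against CH (-0.70, adjusted p = 8.92e-05, within 8.92e-05 to 1.0 over the alternatives) and in CH against DMSO (0.55, adjusted p = 0.000174, within 0.000174 to 1.0), and with all samples in neither. The mean was 50.2 ± 7.98 CPM (SD, n = 3) in FGF2_Activin and 11.8 ± 5.33 CPM (SD, n = 3) in 2i, and Myc was called lower in 2i, with a log2 fold change of -2.08 (SE 0.40, adjusted p = 0.00129). Those 2 media differ in all 4 agents, of which Fgf2 and Activin A were given only together. Against DMSO, with a mean of 14.8 ± 3.61 CPM (SD, n = 3), the log2 fold change in FGF2_Activin was 1.76 (SE 0.40), and Myc did not pass the test (adjusted p = 0.0290). With the replicate block it was 1.85 and Myc was called (adjusted p = 0.00287, within 5.50e-08 to 0.782 over all alternatives). With replicates 2 and 3 alone it was 1.47 and also called. In the 6 fits that each left out a sample it lay between 1.59 and 1.95 and was not called.

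Myc had in the floxed line 32.9, 37.8 and 36.3 CPM in Esrrb_NT and 26.3, 39.1 and 36.0 CPM in Esrrb_4OHT. The groups overlapped, and Myc did not pass (log2 fold change -0.08, with a 95% interval from -0.39 to 0.23). The interval leaves no room for a change of the size seen for Mycn in the same samples.

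Mycl (ENSMUSG00000028654, chromosome 4, 122995652 to 123002485, plus strand) is the least studied member in ES cells. Its levels were 40.0, 25.9 and 23.9 CPM in CH, 35.5, 28.5 and 29.1 in FGF2_Activin, 21.6, 16.2 and 16.4 in DMSO and 23.1, 17.3 and 17.5 in 2i. Replicate 1 was the highest sample in all 4 of these groups, every CH and FGF2_Activin sample was above every DMSO and 2i sample, and within those pairs the groups overlapped. The log2 fold changes were 0.72 in CH and 0.78 in FGF2_Activin against DMSO, and -0.63 and -0.69 in 2i against CH and FGF2_Activin. Mycl passed in none of these 4 comparisons by edgeR's quasi-likelihood test without the block, with adjusted p between 0.0152 and 0.100, and had an unadjusted p between 0.00315 and 0.0105. With the block it passed in all 4, with no change over 2-fold, and the largest adjusted p was 0.000810 (for 2i against CH, within 0.000106 to 1.0 over the alternatives). It also passed in all 4 with replicates 2 and 3 alone. In the floxed line Mycl had 12.9, 17.5 and 18.7 CPM in Esrrb_NT and 12.4, 17.4 and 17.1 in Esrrb_4OHT, groups that overlapped.

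Per kb, Mycn made up 82.8 ± 0.702% (SD, n = 3) of the summed Myc-factor level in Esrrb_NT and 52.5 ± 1.83% in Esrrb_4OHT. The sum itself was 93.3, 103 and 103 CPM per kb in Esrrb_NT and 25.9, 41.0 and 36.6 in Esrrb_4OHT. Myc, whose own level did not pass, went from 13.2% to 36.2% of the sum. In the wild-type cultures the share of Mycn lay between 70.4% in FGF2_Activin and 87.5% in 2i, and that of Myc between 5.98% in 2i and 20.9% in FGF2_Activin.

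**Figure D2:**
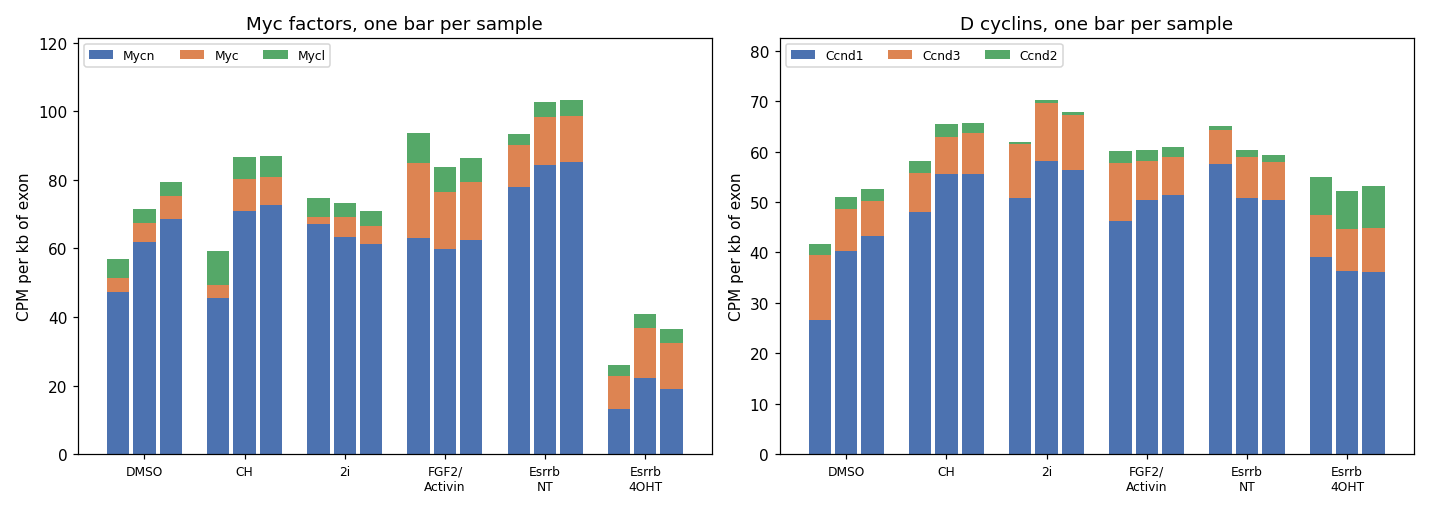
CPM per kb of exon of the Myc factors (left) and of the D cyclins (right), stacked, with 1 bar for each of the 3 samples of a group. Mycn and Ccnd1 make up most of each bar, and within the floxed line the Myc-factor bars are lower and the Ccnd2 part is thicker in Esrrb_4OHT than in Esrrb_NT.

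Among the D cyclins, Ccnd2 moved most. It was about 4-fold lower in 2i than in CH or FGF2_Activin and about 7-fold higher after 4-hydroxytamoxifen in the floxed line. Ccnd1, the most abundant D cyclin per kb of merged exon in every group, moved by less than 2-fold in all 5 comparisons. Ccnd3 passed in none of the 5 with all samples.

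Ccnd2 (ENSMUSG00000000184, chromosome 6, 127125162 to 127152193, minus strand) encodes a D cyclin common in neural and blood progenitors. It had 3.69, 6.08 and 5.59 CPM in 2i, against 23.2, 24.0 and 19.6 in CH, 20.7, 21.7 and 23.0 in DMSO and 21.7, 19.1 and 19.5 in FGF2_Activin. The 3 samples of 2i lay below the other 9, which overlapped in their ranges. The mean was 5.12 ± 1.26 CPM (SD, n = 3) in 2i and 22.3 ± 2.39 CPM (SD, n = 3) in CH, a 4.34-fold difference between media that differ in the MEK inhibitor alone. The log2 fold change was -2.12 (SE 0.17, adjusted p = 0.000103). Against FGF2_Activin, with 20.1 ± 1.38 CPM (SD, n = 3), Ccnd2 was called lower in 2i with a log2 fold change of -1.97 (SE 0.17, adjusted p = 3.72e-06). Both calls were made under all 16 alternatives. Between CH and DMSO the log2 fold change was 0.03, with a 95% interval from -0.32 to 0.39.

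Among floxed cells Ccnd2 had 7.12, 11.8 and 12.2 CPM in Esrrb_NT and 70.6, 71.2 and 78.2 CPM in Esrrb_4OHT. Each treated sample was more than 5 times as high as each untreated one. The means were 10.4 ± 2.84 and 73.3 ± 4.25 CPM (SD, n = 3 each), a 7.04-fold increase with a log2 fold change of 2.82 (SE 0.17, adjusted p = 5.24e-06) that was called under all 16 alternatives. Per kb, Ccnd2 went from 1.81% to 14.6% of the D-cyclin sum. Its exons overlap the antisense genes Gm43126 and 9330179D12Rik over 7.87% of their length, and reads were counted without strand. Neither gene had more than 3 counts in any sample. How reads over the shared bases were assigned is not known here, so these counts do not show how much antisense RNA lies there.

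Ccnd1 (ENSMUSG00000070348, chromosome 7, 144929931 to 144939925, minus strand) is the D cyclin best known as a target of mitogen and Wnt signalling. It had 125, 190 and 204 CPM in DMSO, 226, 262 and 262 in CH, 239, 274 and 266 in 2i and 218, 237 and 242 in FGF2_Activin. The 3 DMSO samples were below the other 9, with replicate 1 the lowest, and the other 3 groups overlapped. The log2 fold change in CH against DMSO was 0.53 (SE 0.15), which did not pass (adjusted p = 0.0140), and with the block it was 0.55 and passed (adjusted p = 0.000480, within 1.10e-06 to 1.0 over the alternatives). In FGF2_Activin against DMSO it was 0.43 and did not pass, and with the block 0.45 and passed (adjusted p = 0.00971, within 0.000277 to 1.0). It was 0.16 in 2i against FGF2_Activin and passed there only with replicates 2 and 3 alone (0.18, adjusted p = 0.00232, within 0.00232 to 1.0). In the floxed line Ccnd1 had 270.5, 239 and 237 CPM in Esrrb_NT and 184, 171 and 170 CPM in Esrrb_4OHT. All treated samples were lower than all untreated ones, and Ccnd1 fell by 0.51 on the log2 scale (SE 0.06, adjusted p = 0.000195), which passed and was not called. Its exons overlap those of LTO1 on the other strand over 23.4% of their length, and LTO1 had between 6.25 and 13.7 CPM. Reads over the shared bases may have been left out or counted for either gene, so the level of Ccnd1 per kb is uncertain.

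Ccnd3 (ENSMUSG00000034165, chromosome 17, 47505051 to 47599691, plus strand) is the D cyclin of many blood and differentiated cells. It had 114, 73.1 and 59.7 CPM in DMSO, 66.3, 64.4 and 70.2 in CH, 94.2, 99.7 and 94.8 in 2i and 102, 68.4 and 66.2 in FGF2_Activin. The 2i samples were above the CH samples, DMSO and FGF2_Activin spread widely with replicate 1 highest, and all neighbouring groups in the order of the means overlapped. With replicates 2 and 3 alone Ccnd3 passed as higher in 2i, by 0.54 against CH (adjusted p = 0.000111, within 0.000111 to 1.0 over the alternatives) and by 0.54 against FGF2_Activin (adjusted p = 1.83e-05, within 1.83e-05 to 1.0). In Esrrb_NT it had 59.9, 71.2 and 67.5 CPM and in Esrrb_4OHT 72.3, 73.1 and 76.8, with all treated samples above all untreated ones, a log2 fold change of 0.16 and no pass. Over 4.11% of its exon length Ccnd3 overlaps Bysl, which had 79.5 to 131 CPM. Its transcripts match sequence of 66 other genes, in the most matched transcript over 1240 of 1999 bases (62.0%), so its level is uncertain. Among genes of like sequence, Ccnd3-ps had at most 3 counts in any sample. The sum of the D cyclins per kb had group means between 48.4 in DMSO and 66.6 in 2i, and Ccnd1 made up 69.6% to 85.9% of it. With a shorter length for Ccnd3 the share of Ccnd1 would be lower.

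**Figure D3:**
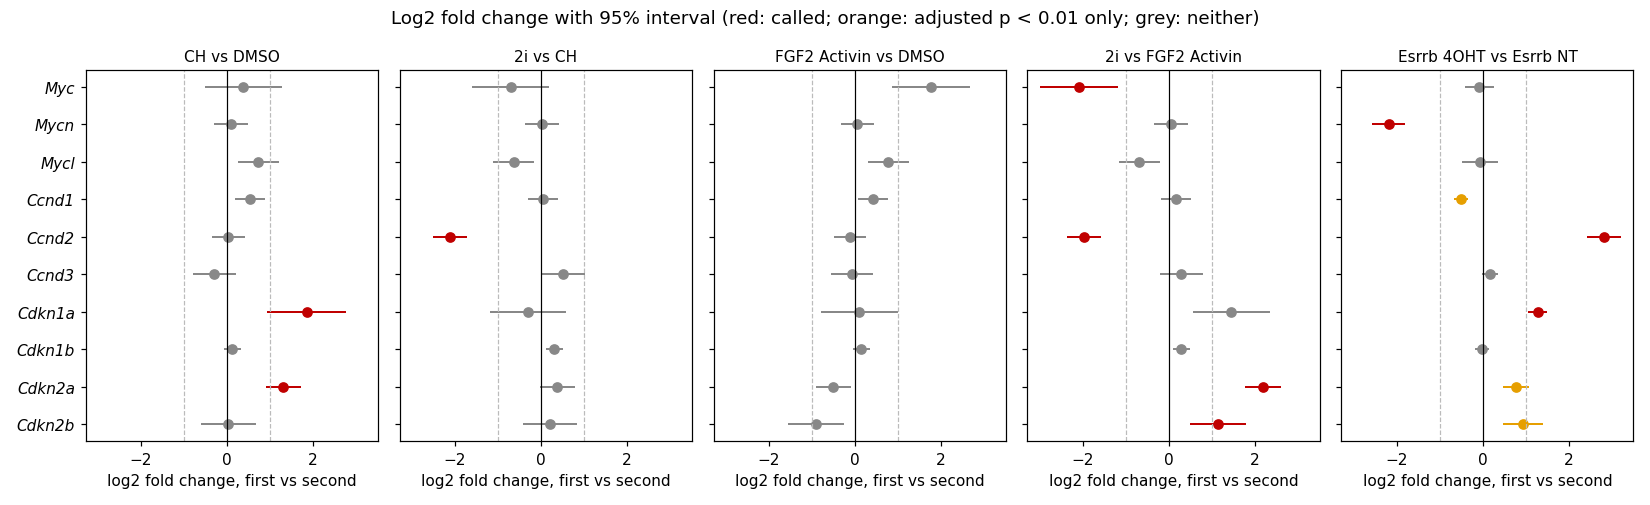
Fitted log2 fold changes of the 10 genes with 95% intervals in the 5 comparisons, first group against second, with dashed lines at a change of 2-fold. Red points were called, orange points passed the test without a change over 2-fold, and grey points did not pass.

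The CDK inhibitors fell into those that moved with the culture and Cdkn1b, which hardly did. Cdkn1a and Cdkn2a were higher in CH than in DMSO. Cdkn1a rose after 4-hydroxytamoxifen in the floxed line, where Cdkn2a and Cdkn2b also rose by less than 2-fold. In edgeR's main fit, of all samples and without the block, Cdkn1b passed in none of the 5 comparisons.

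Cdkn1a (ENSMUSG00000023067, chromosome 17, 29090976 to 29100727, plus strand) encodes p21, an inhibitor of CDK2 complexes and a classic target of p53. It had 73.2, 48.7 and 36.5 CPM in DMSO, 303, 137 and 132 in CH, 248, 109.5 and 109.4 in 2i and 58.3, 55.6 and 56.5 in FGF2_Activin. All CH and 2i samples were above all DMSO and FGF2_Activin samples, with replicate 1 far above the others in CH and 2i. The means were 191 ± 97.5 CPM in CH and 52.8 ± 18.7 CPM in DMSO (SD, n = 3 each), a 3.61-fold increase with a log2 fold change of 1.85 (SE 0.40, adjusted p = 0.00353). With the block the log2 fold change was 1.80 and with replicates 2 and 3 alone 1.66, both called. The call was lost without DMSO replicate 2 (1.80, adjusted p = 0.0161), without DMSO replicate 3 (1.65, adjusted p = 0.0166) and without CH replicate 1 (1.35, adjusted p = 0.0110), and over all alternatives the adjusted p lay between 6.21e-10 and 0.0605. In 2i against FGF2_Activin the log2 fold change was 1.45 (SE 0.40) and did not pass (adjusted p = 0.0101). There it was called with the block (1.32, adjusted p = 0.000159), without 2i replicate 2 (1.66, adjusted p = 0.00981) and without 2i replicate 3 (1.66, adjusted p = 0.00996), over alternatives from 1.23e-07 to 0.209. The call was also made by DESeq2's test (1.44, adjusted p = 0.000809), without a filter (1.46, adjusted p = 0.00364) and with only the 6 samples compared (1.45, adjusted p = 0.00678). Without 2i replicate 1 the log2 fold change was 0.95 and with replicates 2 and 3 alone 0.97, both under 2-fold, so a size over 2-fold rests on replicate 1 of 2i. Between 2i and CH the groups overlapped, with a log2 fold change of -0.29. In FGF2_Activin against DMSO it was 0.10, and Cdkn1a passed there only with replicates 2 and 3 alone (0.39, adjusted p = 0.00605, within 0.00605 to 1.0).

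The floxed cells had Cdkn1a at 230, 205 and 209 CPM in Esrrb_NT and 590, 478 and 489 CPM in Esrrb_4OHT. Every treated sample was more than 2 times as high as every untreated one. The means were 214 ± 13.1 and 519 ± 61.5 CPM (SD, n = 3 each), a 2.42-fold increase with a log2 fold change of 1.27 (SE 0.09, adjusted p = 8.86e-06). The call was made in 15 of 16 alternatives, all 6 that left out a sample among them, and was lost by glmTreat (adjusted p = 0.0153, the highest over the alternatives, from 2.70e-36). Per kb Cdkn1a was the most abundant of the 10 genes in Esrrb_4OHT, at 146 ± 17.3 CPM per kb (SD, n = 3), ahead of Ccnd1 at 37.2 ± 1.73. A part of its exons, 7.68%, is overlapped by the unconfirmed transcript AC167363.2 on the other strand. The most matched transcript of Cdkn1a matches other genes over 12.6% of its bases.

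Cdkn2a (ENSMUSG00000044303, chromosome 4, 89274471 to 89294653, minus strand) encodes p16Ink4a, which inhibits Cdk4 and Cdk6, and p19Arf, which stabilises p53, from separate first exons. The counts per gene do not separate the products. It had 12.0, 11.0 and 14.2 CPM in DMSO, 38.0, 26.6 and 27.4 in CH, 48.1, 35.5 and 36.4 in 2i and 7.94, 8.84 and 9.56 in FGF2_Activin. The CH and 2i samples were all above the DMSO samples, which were all above the FGF2_Activin samples, and CH and 2i overlapped. Cdkn2a rose from 12.4 ± 1.67 to 30.6 ± 6.37 CPM (SD, n = 3 each) in CH against DMSO, 2.47-fold, with a log2 fold change of 1.31 (SE 0.17, adjusted p = 0.000139). In 2i, with 40.0 ± 7.05 CPM (SD, n = 3), it was 4.56-fold higher than in FGF2_Activin, with 8.78 ± 0.811 CPM (SD, n = 3), a log2 fold change of 2.19 (SE 0.18, adjusted p = 2.50e-06). In FGF2_Activin against DMSO the log2 fold change of -0.50 did not pass (95% interval -0.88 to -0.11). In 2i against CH it was 0.39 and passed only with replicates 2 and 3 alone (0.42, adjusted p = 0.00313, within 0.00313 to 1.0). In the floxed line Cdkn2a had 10.6, 9.37 and 9.10 CPM in Esrrb_NT and 18.7, 14.6 and 16.5 in Esrrb_4OHT. All treated samples were higher, and the log2 fold change of 0.78 (SE 0.12, adjusted p = 0.000670) passed and was not called.

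Cdkn2b (ENSMUSG00000073802, chromosome 4, 89306299 to 89311039, minus strand), the neighbour of Cdkn2a, encodes the Cdk4 and Cdk6 inhibitor p15Ink4b. It had 5.36, 3.22 and 3.05 CPM in DMSO, 4.43, 3.79 and 3.72 in CH, 6.44, 3.86 and 3.4998 in 2i and 1.83, 2.00 and 2.36 in FGF2_Activin. The FGF2_Activin samples were below the other 9, which overlapped. In 2i against FGF2_Activin the means were 4.602 ± 1.60 and 2.07 ± 0.270 CPM (SD, n = 3 each), and Cdkn2b was called higher with a log2 fold change of 1.15 (SE 0.28, adjusted p = 0.00568). The call was lost without FGF2_Activin replicate 1 (1.08, adjusted p = 0.0234), replicate 2 (1.13, adjusted p = 0.0221) or replicate 3 (1.26, adjusted p = 0.0124) and without 2i replicate 1 (0.84, adjusted p = 0.0229), within 0.000554 to 0.473 over all alternatives. With replicates 2 and 3 alone the log2 fold change was 0.76, under the 2-fold minimum. In the floxed line it had 2.13, 1.95 and 2.43 CPM in Esrrb_NT and 5.01, 3.49 and 4.02 in Esrrb_4OHT. All treated samples were higher, and the log2 fold change of 0.94 (SE 0.19, adjusted p = 0.00305) passed and was not called. It was called without Esrrb_4OHT replicate 2 (1.05, adjusted p = 0.00408) and without Esrrb_NT replicate 3 (1.03, adjusted p = 0.00829), and by total counts without TMM (1.05, adjusted p = 0.00173). It did not pass without Esrrb_4OHT replicate 3 (0.97, adjusted p = 0.0102) or without Esrrb_NT replicate 2 (0.86, adjusted p = 0.0161), and it passed in 12 of 16 alternatives, which ran from 0.000488 to 1.0.

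Cdkn1b (ENSMUSG00000003031, chromosome 6, 134920401 to 134925513, plus strand) encodes p27, an inhibitor of CDK2 complexes that accumulates in resting cells. It had 78.7, 79.1 and 64.1 CPM in DMSO, 83.5, 77.5 and 80.6 in CH, 101, 98.6 and 99.96 in 2i and 82.7, 80.0 and 83.0 in FGF2_Activin. The 2i samples were above the other 9. DMSO lay below FGF2_Activin without overlap, and CH overlapped both. The log2 fold change in 2i was 0.31 against CH and 0.29 against FGF2_Activin, neither of which passed (adjusted p = 0.0411 and 0.0115). Against CH it passed by DESeq2's test (0.32) and with replicates 2 and 3 alone (0.33, adjusted p = 0.00342), within 0.00342 to 1.0 over the alternatives. The change against FGF2_Activin passed with the block (0.29, adjusted p = 0.00433) and with replicates 2 and 3 alone (0.29, adjusted p = 0.00255). Cdkn1b passed there in 4 of 16 alternatives, which ran from 0.00255 to 1.0. In the floxed line it had 34.7, 34.3 and 35.9 CPM in Esrrb_NT and 35.3, 34.8 and 33.5 CPM in Esrrb_4OHT. The groups overlapped with a log2 fold change of -0.02 and a 95% interval from -0.16 to 0.12.

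The other genes of the pathway were read in lists by function, drawn up with earlier results of these data known. For the floxed line 24.6% of all genes passed as higher and 19.9% as lower. In Esrrb_4OHT against Esrrb_NT, 20 of 24 growth genes known as Myc targets passed as lower and 1 of them was called, with a median of -0.35 on the log2 scale, where that of all genes was 0.00. Ldha, a glycolytic enzyme, fell by 1.05 and Srm, which makes spermidine, by 0.62 on the log2 scale. Of the S-phase genes 11 of 16 passed as lower (median -0.34), among them Rrm2, a subunit of ribonucleotide reductase, at -0.90 and Ung at -0.50. Of the genes of G2 and mitosis 11 of 14 passed as lower (median -0.46), among them the mitotic kinase Aurka at -0.70 and the centromere histone Cenpa at -0.62. No gene of these last lists had a change over 2-fold. Scaling by total counts without TMM moved the median of all genes by 0.11 in this comparison, to 0.11, and the medians of the lists are to be read against such a shift.

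In the same comparison 1 of 10 genes of the Myc network passed as higher and 3 as lower, beside 24.6% and 19.9% of all genes. Mxd4, a repressor that competes with Myc factors for Max, had 1.33, 0.973 and 1.40 CPM in Esrrb_NT and 17.4, 13.8 and 17.3 CPM in Esrrb_4OHT. Every treated sample was far above every untreated one, and Mxd4 was called with a log2 fold change of 3.71. Mxi1, a repressor of the same kind, fell by 0.94. Of the 6 CDK partners and E cyclins 3 passed as lower, among them Ccne1 at -0.59 and Cdk2 at -0.50. Of the 13 retinoblastoma and E2F genes 6 passed as lower (median -0.27), with E2f2 at -0.90 and E2f8 at -0.69. Of the 6 genes that control the turnover of these proteins 4 passed as lower, among them Usp28, an enzyme that removes ubiquitin from Myc proteins, which had 228, 279 and 281 CPM in Esrrb_NT and 80.1, 97.3 and 94.0 in Esrrb_4OHT (log2 fold change -1.54, called), and Skp2 at -0.46. Among the other CDK inhibitors, Cdkn1c, which encodes p57, had 4.73, 6.51 and 5.74 CPM in Esrrb_NT and 27.2, 33.9 and 37.1 in Esrrb_4OHT, groups that did not overlap, and it was called higher with a log2 fold change of 2.53.

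Of 19 known p53 targets other than Cdkn1a, 9 passed as higher and 3 as lower in Esrrb_4OHT, and 4 were called higher, with a median log2 fold change of 0.42. The largest changes by the rule for named genes were those of Perp, a membrane protein of p53-dependent death, at 3.59 and of Btg2, an antiproliferative gene, at 2.36. Trp53, which encodes p53 and was named after its values were seen, had 373, 413 and 409 CPM in Esrrb_NT and 276, 318 and 311 in Esrrb_4OHT, and it fell by 0.40 on the log2 scale, which passed. Protein levels were not measured, and the part of p53 in the level of Cdkn1a was not tested.

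In CH against DMSO 13.7% of all genes passed as higher and 15.3% as lower, and counts of a list near these shares say nothing particular about it. Of the Myc targets 3 of 24 passed as higher and 1 as lower (median 0.02), with Dkc1, a ribosome biogenesis factor, at 0.44 and Ldha at -0.78. In the list of CDK partners, Cdk6, which binds D cyclins, had 38.6, 20.9 and 19.8 CPM in DMSO and 67.4, 81.8 and 77.2 in CH, and Ccne1, which acts with Cdk2, had 152, 222 and 247 in DMSO and 68.8, 113 and 115 in CH. Neither pair of groups overlapped, and Cdk6 was called higher (log2 fold change 1.51) and Ccne1 lower (-1.06). Cdkn1c was called higher, with a log2 fold change of 1.86, and had 6.62, 7.51 and 8.76 CPM in DMSO and 48.7, 19.1 and 15.3 in CH, so replicate 1 of CH stood far above the others. Cdkn2d passed at 0.44. Of the p53 targets 3 of 19 passed as higher and 2 as lower (median -0.12), with Gadd45a at 1.05 and Perp at -1.26. Further genes that passed were E2f8 at -1.26, Rbl2 at 0.92, Usp28 at -0.82, Fbxw7 at 0.65, Mxd4 at -0.97, Gins2 at -0.63, Cdc20 at -0.42 and Bub1 at -0.34. The S-phase list had 1 of 16 lower (median -0.04) and the list of G2 and mitosis 2 of 14 lower (median -0.09), against a median of 0.00 over all genes.

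In 2i against CH, Cdkn1c was the one gene of these functional lists to pass, called lower with 4.49, 4.13 and 4.53 CPM in 2i and a log2 fold change of -2.66. The most abundant genes of the other lists did not pass, among them Mga at 0.21, Cdk4 at 0.16, Tfdp1 at -0.17, Usp28 at 0.08, Npm1 at -0.05, Sesn2 at -0.02, Mcm7 at 0.12 and Top2a at 0.08. In FGF2_Activin against DMSO, where 205 genes were called in all, 0 genes of these lists passed edgeR's quasi-likelihood test. Their most abundant genes were Mga at -0.04, Cdk4 at -0.10, Tfdp1 at 0.15, Usp28 at -0.43, Npm1 at 0.01, Sesn2 at -0.30, Mcm7 at -0.06 and Top2a at 0.28. The values for Cdkn1c there were 8.96, 17.1 and 17.4 CPM in FGF2_Activin and a log2 fold change of 0.93.

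In 2i against FGF2_Activin 17.8% of all genes passed as higher and 19.9% as lower, and the counts of the lists below are to be read beside these shares. Ccne1 was called lower (log2 fold change -1.43) and Cdk6 higher (1.03), and Cdkn1c was called lower (-1.72) while Cdkn2d passed as higher (0.57). Ldha fell by 1.05 and Mrto4 by 0.65 on the log2 scale, the largest changes among the 2 lower and 2 higher of 24 Myc targets (median -0.23, against 0.00 over all genes). E2f8 fell by 1.63 and Rbl2, a relative of the retinoblastoma protein, rose by 1.33, and of the 13 genes of that list 3 passed as higher and 2 as lower. Of the 6 turnover genes 2 passed as higher, with Fbxw7 at 0.57, and 1 as lower, Cks1b at -0.78. In the Myc network Mxd4 was called lower at -1.44 and Zbtb17, the partner through which Myc represses genes, passed at 0.78. The p53 targets had 4 of 19 higher and 3 lower, with Pmaip1 at -1.84 and Perp at -1.56, and Trp53 passed at 0.95. The S-phase list had 3 of 16 lower, with Gins2 at -0.44 and Slbp at -0.34, and the list of G2 and mitosis 2 of 14 lower, with Bub1 at -0.61 and Cdc20 at -0.34.

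Markers of other cell states moved with these comparisons, and their part in the results was not tested. The 6 primitive streak markers summed to 53.3, 75.9 and 76.8 CPM in Esrrb_NT and to 337, 490.0 and 483 in Esrrb_4OHT, with T (brachyury) as the most abundant and Gsc, Mesp1 and Tbx6 under 1 CPM in both. They summed to 10.2, 14.5 and 14.7 CPM in DMSO, 673, 509 and 442 in CH, 119, 84.9 and 83.9 in 2i and 12.99, 18.8 and 18.5 in FGF2_Activin, with T as the most abundant in CH and 2i and Eomes in the others. The 5 neural markers summed to 48.6, 50.3 and 51.5 CPM in Esrrb_NT and 213, 214 and 215 in Esrrb_4OHT, with Nes the most abundant at means of 31.0 and 207 CPM and Sox1 and Neurog2 under 1 CPM in both. Nes alone carried this rise, and the other 2 tested, Pax6 at -1.70 and Tubb3 at -1.56, were called lower. They summed to 118, 134 and 173 CPM in DMSO, 22.1, 48.8 and 38.5 in CH, 17.8, 48.8 and 49.4 in 2i and 131, 129 and 133 in FGF2_Activin, with Nes the most abundant but in 2i, where it was Tubb3. The 8 ES cell markers summed to 3878, 3754 and 3840 CPM in Esrrb_NT and 2273, 2269 and 2073 in Esrrb_4OHT, and 8 of 8 passed as lower, with Sox2 at -2.41 and Fgf4 at -2.25. Their sums were 1797, 1869 and 1688 CPM in DMSO, 2721, 3028 and 3261 in CH, 4329, 4103 and 3958 in 2i and 2774, 2640.3 and 2590.5 in FGF2_Activin.

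The 7 trophoblast markers summed to 119.8, 83.6 and 74.0 CPM in CH, mostly Cdx2, against 40.9, 28.4 and 24.0 in DMSO, with Elf5, Gata3 and Hand1 under 1 CPM in both. In the other groups their mean sums were 46.2 CPM in 2i, 24.2 in FGF2_Activin, 47.8 in Esrrb_NT and 54.8 in Esrrb_4OHT. The 7 primitive endoderm markers summed to at most 10.6 CPM in any sample, with Dab2, Sox7 or Pdgfra as the most abundant. The 8 fibroblast markers summed to at most 54.8 CPM, in DMSO replicate 1, and their most abundant gene was Thy1 in each group but 2i, where it was Pdgfrb. The defining collagens Col1a1 and Col3a1 and Lum and Postn were under 1 CPM in each of the 6 groups.

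The stretches before the starts of Mycn, Cdkn1a and Cdkn2a are shown because these genes moved over 2-fold in the comparisons above and hold matches to motifs of the pathway. RefSeq promoters of build GRCm38.p6 matched 7 of the 10 genes, with 10 starts, and Myc, Ccnd1 and Ccnd2 had no entry. The motifs searched on both strands of the 250 bases before each start were the E-box CACGTG, the TCF/LEF motif CTTTGA or CTTTGT, the E2F motif TTTCCCGC or TTTGGCGC, the p53 half-site and, added after the values were seen, the Esrrb motif TCAAGGTCA. Of 32851 promoters these were held by 6.02%, 27.6%, 1.3%, 7.13% and 0.387%. Each sequence is on the strand of its gene, stops before the first annotated exon, and has its motif matches in capitals. Distances are counted to the RefSeq start, which lies inside the annotated first exon, 78, 3 and 34 bases past the end of the stretch printed for Mycn, Cdkn1a and Cdkn2a. The matches are E2F motifs starting 183 and 168 bases before the start of Mycn, p53 half-sites starting 73 and 51 bases before the start of Cdkn1a, and an E2F motif starting 99 bases before the upstream start of Cdkn2a, that of p19Arf.
Mycn, chr12:12941915-12942086, minus strand: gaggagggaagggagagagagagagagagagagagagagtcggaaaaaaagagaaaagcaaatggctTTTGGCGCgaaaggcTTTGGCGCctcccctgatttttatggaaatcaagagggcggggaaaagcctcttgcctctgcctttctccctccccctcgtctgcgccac
Cdkn1a, chr17:29090729-29090975, plus strand: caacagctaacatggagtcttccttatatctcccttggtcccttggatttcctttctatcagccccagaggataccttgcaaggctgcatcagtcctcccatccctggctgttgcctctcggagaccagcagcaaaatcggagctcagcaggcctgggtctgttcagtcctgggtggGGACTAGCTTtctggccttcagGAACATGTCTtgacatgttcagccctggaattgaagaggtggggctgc
Cdkn2a, chr4:89294654-89294869, minus strand: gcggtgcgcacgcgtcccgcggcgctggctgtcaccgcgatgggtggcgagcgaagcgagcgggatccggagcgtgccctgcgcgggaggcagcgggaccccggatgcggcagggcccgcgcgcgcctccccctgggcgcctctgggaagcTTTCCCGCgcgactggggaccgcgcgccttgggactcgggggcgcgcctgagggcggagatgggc
In the stretches not shown, Mycn held CTTTGA 13 bases before its start, Ccnd3 held CTTTGT 29 bases before one of its starts and Mycl held a p53 half-site at 69 bases. A match is a description of the letters and says nothing of a factor bound there.

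By Pearson correlation of log2 CPM over the 12 wild-type samples, given as a description, the genes most like Cdkn2a were Lama1, Ptgr1 and Spp1 (r = 0.992, 0.987 and 0.985), and those most like Ccnd2 were Nat8l, Cnksr2 and Zfp618 (0.983, 0.970 and 0.970). The samples fall into 4 cultures with 3 samples each. Closest to Cdkn1a were Tmprss12, Tada2a and Znrf3, the last a membrane inhibitor of Wnt signalling (0.982, 0.980 and 0.980). Closest to Ccnd1 were Rcl1, Polr1d and Chchd4 (0.957, 0.955 and 0.953), and to Cdkn2b Chmp5, Hhex and Bet1l (0.957, 0.950 and 0.931). For Myc they were Ctf2, Slc7a7 and Tlr3 (0.931, 0.928 and 0.926), for Mycn Tor1a, Mrps25 and Gps1 (0.900, 0.878 and 0.873) and for Mycl Tcaf2, Trim67 and Acad12 (0.922, 0.899 and 0.896). Genes like Ccnd3 were Akap12 and Cbfa2t2 (0.934 and 0.931), and genes like Cdkn1b were Tbl1xr1 and Mybl1 (0.940 and 0.936). Rcl1 is also on the list of Myc targets.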

How the data were processed

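RNA sequencing of 18 mouse ES cell samples, 3 in each of 6 groups, was used, with groups and replicate numbers from the sample labels. The values are counts: by the submitters' processing notes, the authors aligned reads to mm10 with TopHat2 and counted them on Ensembl genes of GRCm38 with HTSeq without strand, and deposited the counts without normalisation. Of 49671 identifiers, 49412 matched GENCODE M21, which gave symbols and positions, and 31411 genes had a count.

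Analysis used edgeR 4.0.16, limma 3.58.1 and DESeq2 1.42.0 in R 4.3.3, and Python 3.11.15 with numpy 2.4.6, pandas 2.3.3 and matplotlib 3.10.9. The 12 wild-type and the 6 floxed samples were fitted apart, with TMM scaling and filterByExpr, which kept 16413 and 14893 genes, and glmQLFTest, two-sided, with Benjamini-Hochberg adjustment over all genes. Genes passed at an adjusted p under 0.01 and were called at an absolute log2 fold change above 1 as well. The tests were first checked on simulated data, of which no result is given here. Totals of 19915222 to 37158661 counts per sample set the precision for low genes, and counts are of reads, not molecules.

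Deviations from group means of samples with the same replicate number had a mean correlation of 0.518 (18 pairs, 12935 genes) in the wild-type and 0.315 (3 pairs, 13142 genes) in the floxed samples, against -0.208 and -0.141 for other pairs, over genes that are not independent. The low mean of other pairs comes from pairs with replicate 1: in the wild-type samples, replicate 2 of a group and replicate 3 of another correlated at 0.341 to 0.631, as highly as equal numbers among them. So the values set replicate 1 apart from the rest and do not show that replicates 2 and 3 are paired by number. A fit with replicate numbers as blocks had been chosen from the labels. Further alternatives were scaling by DESeq2's size factors or by total counts without TMM, no filter or a filter at 10 counts in each sample, the test of DESeq2, glmTreat at 2-fold, no minimum change, leaving out each sample, and fitting only the 6 samples compared (for the floxed line, all 18 together). Replicates 2 and 3 alone were added after seeing the data. No 2 replicates held the same counts (chi-square per gene at least 1.44), which does not show whether they were separate cultures.

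The members and lists were chosen with earlier results of these data known. Named are all 10 members, the genes reporting on treatments, Esrrb, of each list of functional genes or markers the 2 largest changes among genes that passed with a mean of at least 50 counts (or the most abundant gene where none passed), and 2 or 3 of the protein-coding genes with the highest correlation of log2(CPM + 0.5) with each member. Shared sequence was sought with blastn 2.17.0 (at least 75 bases at 95% identity). Promoter sequences came from RefSeq, and protein sequences were not used here.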

Additional observations from a re-analysis of the deposited data

How the results depend on the processing

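Each of the 50 pairs of member and comparison was computed under 16 alternatives, 800 values in all. Of these 769 kept their side of the threshold for a call, 15 lost the call, 16 gained it and 0 reversed a called direction. Of the 50 pairs 40 kept their side under every alternative, though changes that were not called could turn in sign. The sign was the same under all settings for 36 of 50 pairs. The members called in CH against DMSO numbered 0 by glmTreat and 1 with only the 6 samples compared, and 1 to 2 with a sample left out. In FGF2_Activin against DMSO they numbered 1 without a filter, by DESeq2's test, with the replicate block, and with replicates 2 and 3 alone, an alternative chosen after seeing the data. In 2i against FGF2_Activin they numbered 2 by glmTreat, and in Esrrb_4OHT against Esrrb_NT 6 without a minimum fold change. The cause was not tested, except that glmTreat asks for more than a 2-fold change, no minimum asks for less and fewer samples leave fewer degrees of freedom. With the block, calls changed for Myc in FGF2_Activin against DMSO and for Cdkn1a in 2i against FGF2_Activin, and it changed no other call of a member.

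Over all genes, glmTreat called 1308 in CH against DMSO (2907 as reported), 47 in 2i against CH (326), 57 in FGF2_Activin against DMSO (205), 2231 in 2i against FGF2_Activin (3857) and 967 in Esrrb_4OHT against Esrrb_NT (2485). Without a minimum fold change 4750, 6193 and 6621 passed in CH against DMSO, 2i against FGF2_Activin and Esrrb_4OHT against Esrrb_NT, and the filter at 10 counts in every sample left 1755 and 2332 calls in the first 2 of these. With a sample left out, 2i against CH went down to 144 and FGF2_Activin against DMSO to 112. Fits of only the 6 samples compared took these to 100 and 87. They rose to 605 and 379 by DESeq2's test, to 672 and 424 with the block and to 768 and 499 with replicates 2 and 3 alone.

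Depth limits Cdkn2b, with 38 to 201 counts per sample, and the floxed samples were sequenced less deeply. With 3 samples a group, of which replicate 1 stood apart, a change under the threshold is not shown to be absent.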

Other observations

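Genes of the marker lists that passed are given here with their log2 fold changes. For the ES cell markers in the floxed line only the 2 that were called are given. In CH against DMSO 4 of 8 ES cell markers passed as higher (Nanog 3.51, Zfp42 3.21, Sox2 2.01, Dppa5a 1.97) and 2 as lower (Utf1 -1.4986, Fgf4 -0.90). Of the endoderm markers Foxa2 (1.59) was called higher and Sox7 (-2.51) and Dab2 (-2.13) lower. Cdx2 (9.49), Tfap2c (2.22), T (10.16) and Mixl1 (4.27) were called higher, and Eomes (-2.08), which is on the trophoblast and streak lists, Thy1 (-2.38), Dcn (-3.05) and Nes (-1.94) lower.

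In 2i against CH Fgf4 (1.36) was called higher, and Foxa2 (-2.80), Dab2 (-1.73), Cdx2 (-2.66), T (-2.55), Mixl1 (-4.31) and Nes (-1.18) lower, and Thy1 at -1.57 did not pass. Dppa5a (1.58) alone passed in FGF2_Activin against DMSO, and Dab2 at -0.71, Cdx2 at 0.03, Thy1 at -0.76, T at 0.29 and Nes at -0.06 did not. In 2i against FGF2_Activin Zfp42 (3.77), Nanog (3.51), Sox2 (2.70), Dppa5a (1.32), Cdx2 (6.80), Tfap2c (4.71) and T (7.32) were called higher. Utf1 (-1.82), Sox7 (-1.9999), Dab2 (-3.15), Eomes (-1.90), Thy1 (-3.19), Dcn (-4.39) and Nes (-3.06) were called lower there.

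After 4-hydroxytamoxifen 8 of 8 ES cell markers passed as lower, and 2 of them, Sox2 (-2.41) and Fgf4 (-2.25), were called. Pdgfra (2.16), Gata4 (1.27), Krt7 (4.30), Cdx2 (1.11), Mixl1 (4.69), T (3.23) and Nes (2.74) were called higher. Sox7 (-3.17), Pax6 (-1.70) and Tubb3 (-1.56) were called lower. Of the 4 fibroblast markers tested, Thy1 (-1.85) was the 1 called lower, and Col1a2 (3.68), Pdgfrb (2.20) and Dcn (4.47) were called higher, to means of at most 2.74 CPM. Of the 6 genes that report on the treatments 4 passed as higher there, 3 of them called, and 1 was called lower. Among them Axin2 passed at 0.28, Nkd1 was called at 3.27 and Lefty1 at 2.89, and Spry4 was called lower at -1.25.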
